A study of Mus musculus with 9 samples.

Results

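Of the 41345 probe sets on the array, 1814 carry more than 1 gene symbol in the platform annotation, and these shared probe sets are described here one by one. A probe set is a group of short oligonucleotides summarised as a single value. Where its oligonucleotides match duplicated genes, overlapping genes or a host gene and the small RNA inside it, 1 value stands for all of them. A further 23521 probe sets carry 1 symbol and 16010 carry none. The shared probe sets hold 2726 distinct symbols, of which 925 also have a probe set of their own.

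The RNA came from murine embryonic fibroblasts, cultured connective tissue cells of the mouse embryo, and was hybridised to 9 Affymetrix arrays. WT cells were STING+/+, SKO cells were STING-/- and MyD88KO cells were MyD88-/- (spelled MyD99KO in 1 label). Each genotype was left untreated (mock), given double-stranded DNA by transfection (dsDNA, named ISD in the labels) or treated with LPS. There was 1 array per genotype and treatment. The time is given as 6 hours for dsDNA and LPS, and none is given for mock. The labels do not give the STING genotype of the MyD88KO cells beyond that name, the dose of either agent, or a transfection control without DNA.

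Cytosolic dsDNA is sensed by the enzyme cGAS, whose second messenger activates STING, an endoplasmic reticulum adaptor that leads to phosphorylation of IRF3 and to type I interferon. LPS, a bacterial cell wall lipid, is recognised by TLR4, which signals through MyD88 and, on a separate branch, through TRIF. Many interferon-stimulated genes lie in tandem families such as the guanylate-binding proteins, immunity-related GTPases, Schlafens and oligoadenylate synthetases, whose members are alike enough for 1 probe set to read several of them. Such genes often carry the interferon-stimulated response element near their start.

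The neighbours joined by a probe set can be compared at their start sites. The next lines show stretches upstream of the annotated starts (RefSeq, GRCm38.p6, 5′ to 3′ on the strand of the gene) for 4 pairs whose shared probe set was higher after dsDNA. Capitals mark matches to the core of the interferon-stimulated response element, written here as GAAA, any 2 bases and GAAA again, on either strand. On the other strand it reads TTTC, any 2 bases and TTTC.
Gbp2 (chr3:142620574-142620643, forward strand): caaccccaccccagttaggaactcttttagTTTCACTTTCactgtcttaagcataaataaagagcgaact
Gbp2b (chr3:142594680-142594749, forward strand): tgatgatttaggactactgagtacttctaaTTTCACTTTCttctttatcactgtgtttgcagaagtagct
Tgtp1 (chr11:48992284-48992353, reverse strand): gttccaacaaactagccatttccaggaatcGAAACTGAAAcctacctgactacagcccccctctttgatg
Tgtp2 (chr11:49064243-49064312, reverse strand): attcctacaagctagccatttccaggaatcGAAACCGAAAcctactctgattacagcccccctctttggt
Oas1a (chr5:120907526-120907575, reverse strand): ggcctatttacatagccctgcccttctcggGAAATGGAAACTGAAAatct
Oas1g (chr5:120887614-120887661, reverse strand): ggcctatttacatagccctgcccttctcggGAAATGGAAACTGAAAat
Slfn8 (chr11:83020819-83020888, reverse strand): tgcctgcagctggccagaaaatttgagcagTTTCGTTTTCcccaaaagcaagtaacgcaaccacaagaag
Slfn9 (chr11:82991836-82991905, reverse strand): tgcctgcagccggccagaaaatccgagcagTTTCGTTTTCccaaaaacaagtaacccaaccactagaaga
Only pairs with a match upstream of both genes were printed, so its presence in both was set by that choice. In Gbp2 and Gbp2b it had the same letters but different positions, -59 and -137 from the start. Among other pairs higher after dsDNA, Trim5 and Trim12c both held a match. Tmem140 and Trim34a held it but Cyren and Trim34b did not, and Irf5, Tnpo3, Rnaset2a and Rnaset2b held none. In Oas1a and Oas1g the capitals cover 2 overlapping matches. Over the 250 bases upstream, the 2 copies were identical at 83.1% of aligned positions for Oas1a and Oas1g, at 80.7% for Slfn8 and Slfn9 (of which Slfn8 has 2 annotated starts), at 65.3% for Tgtp1 and Tgtp2 and at 52.3% for Gbp2 and Gbp2b. The same alignment gave 52.5% for Irf5 and Tnpo3, which are no copies of each other. The core was found in the window from 250 bases before to 50 bases after the start for 15 of the 32 symbols with a window among the probe sets higher after dsDNA in both WT and MyD88KO (46.9%). It was found for 4.7% of the 1831 shared probe set symbols with a window and for 3.99% of 27025 symbols in all. The 15 include both genes of copied pairs such as Oas1a and Oas1g, so they are not independent. Only 32 of the 49 symbols on those probe sets have a window. TTCNNNGAA, the letters of the interferon-gamma activated site, was found in 12.5%, 8.19% and 9.55% of the same sets, and GGGA, any 2 bases and TTCC, an NF-kB-like motif, in 3.12%, 1.53% and 1.63%. A match is a description of the letters only, since no binding was measured.

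Small RNAs joined to their host gene are another kind of shared probe set. Both such probe sets that were higher after dsDNA hold a miRNA, whose mature sequence is given here (RefSeq, GRCm38.p6) with the seed, bases 2 to 8, in capitals, because the seed sets its targets.
mmu-miR-155-5p (chr16:84714143-84714165, forward strand): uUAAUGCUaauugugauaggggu
mmu-miR-147-5p (chr2:122640814-122640837, forward strand): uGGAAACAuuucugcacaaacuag
The 2 seeds shown differ. Another mature sequence of Mir155, mmu-miR-155-3p, was not printed. These probe sets lie on an array of whole transcripts, and the mature miRNAs were not measured.

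By the names they join, 413 of the 1814 probe sets hold copies of 1 named family, 384 hold differently named genes, 610 hold a named gene with a predicted, antisense or pseudogene locus, 216 hold only predicted or clone-named loci, 125 hold a host gene with a small RNA and 66 hold small RNA copies. Exactly 2 symbols are joined on 1137, 3 to 5 on 441 and more than 5 on 232, with 20 as the highest number, while 4 give 1 symbol more than once. In RefSeq, at least 1 pair of the joined genes overlaps on 579 probe sets. On 297 none overlap but at least 1 pair are direct neighbours. The joined genes lie apart on the same chromosome on 670 and on more than 1 chromosome on 200, and 68 could not be placed. Copies of named families mostly lie apart on 1 chromosome (257 of 413), whereas differently named genes mostly overlap (236 of 384). Since 297 probe sets share all 9 values with another, there are 1622 distinct sets of values.

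The array medians lay between 4.42 and 4.46 on the log2 scale, and the median of all values, 4.44, served as the floor below which a signal was taken as dim. In all, 1132 of the shared probe sets (62.4%) reached the floor on at least 1 array, compared with 65.9% of the probe sets with 1 symbol and 43% of those with none. The other 682 are below it everywhere, among them all 67 Y-linked multicopy probe sets and all but 1 of 62 vomeronasal receptor probe sets, receptors of the nasal pheromone organ. Of 10 fibroblast markers, 9 were above the floor on every array. Of the 10 leukocyte and macrophage markers measured, 8 were above the floor everywhere and Cd3e nowhere. Their median was 5.39 in WT mock, 6.13 in SKO mock and 5.58 in MyD88KO mock. Of 6 muscle markers, 5 were above the floor everywhere, with a median of 7.6, 6.73 and 6.88 in the same arrays. So were 3 of the 4 epithelial markers measured and 2 of 3 endothelial markers. Sting1 read 8.54 to 8.57 in WT, 8.73 to 9.32 in MyD88KO and 3.78 to 4.6 in SKO cells. Myd88 was 7.52 in WT mock and 6.99 in MyD88KO mock, so that probe set gives no check of the deletion.

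After dsDNA, the shared probe sets that were higher in both WT and MyD88KO included Gbp2/Gbp2b, Gm4841/BC023105, Ifi211/Ifi204 and Dtx3l/Parp9, each by more than 3 on the log2 scale. With 1 array a group, these differences between 2 arrays have no replicate check, and a fold was counted where the brighter array reached the floor. In WT cells 26 of 1071 shared probe sets were at least 2-fold higher (2.43%), against 1.93% of all probe sets, and 1 was lower, against 0.692%. In MyD88KO cells 40 of 1064 were higher (3.76%), against 3.64% of all, and 2 were lower, against 0.913%. In SKO cells 1 of 1056 was higher (0.0947%), against 0.553% of all, and 0 were lower, against 0.46%. The shares in WT and MyD88KO thus lay near the background of the whole array. Among probe sets with 1 symbol, 1.87%, 3.24% and 0.137% were higher in WT, MyD88KO and SKO.

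WT and MyD88KO, which have separate mock arrays, shared 24 of these probe sets out of 1036 above the floor in both comparisons (2.32%), against 1.45% of all probe sets. That is 24 of the 26 in WT and 24 of the 40 in MyD88KO. Their median difference was 2.33 in WT, 3.03 in MyD88KO and 0.23 in SKO, and 18 of the 24 were larger in MyD88KO than in WT. Over all probe sets, more were also higher after dsDNA in MyD88KO (3.64%) than in WT (1.93%). On all 24 the SKO dsDNA array read below both the WT and the MyD88KO dsDNA arrays. The 24 were picked for high dsDNA arrays in WT and MyD88KO, which favours a lower SKO array. Counts of this kind were not made over all probe sets. In 8 of the 24 both the WT and the MyD88KO mock array lay below the floor, so that they entered the count through the dsDNA arrays and their fold sizes are not firm. These are Gm4841/BC023105, the dimmer Tgtp2/Tgtp1, the Sp140 group, AA467197/Mir147, Oas1a/Oas1g, Cyren/Tmem140, Trim34b/Trim34a and Trim12c/Trim5. The SKO mock array read above the WT mock array on 15 of the 24, an order that a choice by the WT difference favours. The leukocyte and macrophage marker median was also higher in SKO mock. The part of both in the result was not tested. In RNA of whole cultures, fewer cells of a type and less RNA per cell cannot be told apart.

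A linear model over all 9 arrays (limma) gave a test by letting WT and MyD88KO share 1 dsDNA effect, with p adjusted over 23516 probe sets. It called 34 of 1132 shared probe sets higher (3%), against 1.77% of all, of which 23 by at least 2-fold. It called 3 lower (0.265%), against 0.298% of all. Of the 24 probe sets higher in both genotypes, 21 passed, but they were picked on the same arrays, so this is no separate check. These calls rest on few arrays: 0 passed without the WT dsDNA, the MyD88KO dsDNA or the MyD88KO mock array, 10 without the WT LPS, SKO mock or SKO LPS array, and 17 without the WT mock array, of which 15 were among the original calls. The count was 14 without the intensity trend, 17 without the filter on dim probe sets and 74 when only probe sets with a symbol were fitted, against 37 in both directions.

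The guanylate-binding proteins, interferon-induced GTPases that attack pathogen compartments, had the largest shared effect in limma among the shared probe sets. Gbp2/Gbp2b, direct neighbours on 1 chromosome, read 4.46, 10.6 and 7.22 in WT mock, dsDNA and LPS. In SKO the same arrays read 6.37, 6.8 and 8.52, and in MyD88KO 4.7, 11.33 and 7.02. The dsDNA arrays of WT and MyD88KO stood above all the others, and the SKO mock array lay above the other mocks. The shared dsDNA effect was 6.29 ± 0.21 (SE) on the log2 scale (limma, adjusted p = 0.0016), and it exceeded the SKO effect by 5.66 (limma, adjusted p = 0.0271). The probe set of Gbp2b alone stayed below the floor on all 9 arrays, at 3.79 to 4.21 (probe sets with 1 symbol were looked up after the values of the shared ones were seen).

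Gm4841/BC023105, 2 loci known by clone or model names, was dim on all mock arrays, so the size of its differences depends on signals below the floor. It read 2.84, 9.1 and 5.35 in WT mock, dsDNA and LPS, 3.28, 4.68 and 6.67 in SKO, and 3.53, 9.26 and 4.76 in MyD88KO. The dsDNA arrays of WT and MyD88KO were the brightest, and this was the 1 shared probe set that was at least 2-fold higher after dsDNA in SKO (1.4). The shared dsDNA effect was 6.13 ± 0.27 (SE; limma, adjusted p = 0.00184) and exceeded that in SKO by 5 (limma, adjusted p = 0.0394). Probe sets of Gm4841 alone and BC023105 alone differed by 4.5 and 4.28 between the WT arrays, and by 5.25 and 3.83 between those of MyD88KO.

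The immunity-related GTPases, which remodel vacuole membranes, were represented by Tgtp2/Tgtp1 on 2 probe sets. The brighter read 4.98, 7.8 and 5.23 in WT, 4.94, 4.77 and 5.03 in SKO, and 4.73, 8.13 and 4.82 in MyD88KO for mock, dsDNA and LPS. Both dsDNA arrays with STING were high and the other 7 lay close together. Its shared effect was 3.07 ± 0.17 (SE; limma, adjusted p = 0.00376) and exceeded that in SKO by 3.15 (limma, adjusted p = 0.0394). The dimmer reached the floor on the dsDNA arrays of WT (5.85) and MyD88KO (6.83) alone, and the other 7 read 2.08 to 3.08. It passed the filter through the arrays where it is high, so its rise (limma, adjusted p = 0.0297) has no firm size, and its difference from SKO missed the threshold (limma, adjusted p = 0.24). Olfr56/Ifi47 joins an olfactory receptor to another immunity-related GTPase. It differed by 2.33 in WT and 2.98 in MyD88KO and by -0.22 in SKO, and its rise passed (limma, adjusted p = 0.0106).

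The very large inducible GTPases showed a different pattern. All 6 probe sets of the Gvin1 cluster, grouped after their values were seen, were higher by 2.35 to 2.7 in MyD88KO but by 0.86 to 1.05 in WT. Gvin1/Gm4070 read 7.48, 8.53 and 8.45 in WT mock, dsDNA and LPS, 8.14, 8.05 and 9.06 in SKO, and 5.97, 8.6 and 7.13 in MyD88KO. The MyD88KO mock array was the lowest of the 9, and WT dsDNA and LPS were nearly level. The shared effect of the 6 ranged from 1.6 to 1.82, and 0 of them passed in limma at an adjusted p under 0.05, while all 6 had an unadjusted p under 0.05.

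The p200 proteins, which bind DNA through HIN domains, were read by Ifi211/Ifi204 and Ifi203/LOC100862473/Ifi203-ps. Ifi211/Ifi204 read 6, 10.69 and 8.43 in WT mock, dsDNA and LPS, 7.14, 7.92 and 9.93 in SKO, and 8.09, 11.6 and 9.62 in MyD88KO. The mock levels differed between genotypes, with WT lowest. It rose by 4.19 ± 0.3 (SE; limma, adjusted p = 0.00794). The Ifi203 probe set was higher by 1.75 in WT and by 4.48 in MyD88KO, and this uneven pair missed the threshold (limma, adjusted p = 0.0953).

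The Sp100 family of nuclear body proteins, chromatin readers, had 9 shared probe sets, of which 4 reached the floor and 2 passed. C130026I21Rik/Sp140/LOC100041057/LOC100041708/A530032D15Rik rose by 3.69 ± 0.14 (SE; limma, adjusted p = 0.0016), with WT going from 4.24 to 7.7, MyD88KO from 4.13 to 8.06 and SKO from 4.05 to 4.37. Sp110/A530040E14Rik rose by 2.7 ± 0.1 (SE; limma, adjusted p = 0.0016), with WT going from 5.16 to 7.86, MyD88KO from 5.44 to 8.07 and SKO from 4.96 to 5.05. The rises of both exceeded those in SKO, by 3.35 (limma, adjusted p = 0.0299) and by 2.68 (limma, adjusted p = 0.0271). Gm7609/Sp100 was higher by 0.42 in WT and 1.64 in MyD88KO.

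Dtx3l and Parp9 encode a ubiquitin ligase and an ADP-ribosyltransferase that form a complex, and their genes overlap. Dtx3l/Parp9 read 5.61, 9.34 and 6.98 in WT mock, dsDNA and LPS, 5.87, 6.66 and 7.8 in SKO, and 5.91, 10.16 and 7.31 in MyD88KO. Mock levels were close across genotypes. It rose by 4.04 ± 0.17 (SE; limma, adjusted p = 0.00178), which exceeded SKO by 3.37 (limma, adjusted p = 0.0355). The probe set of Parp9 alone was higher by 4 in WT and 4.07 in MyD88KO.

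Among other antiviral families, the Schlafens, regulators of RNA and cell growth, had 1 responding probe set. Slfn9/Slfn8 rose by 3.43 ± 0.34 (SE; limma, adjusted p = 0.0196), with WT going from 4.4 to 7.96 and MyD88KO from 6.86 to 9.79, the latter from a mock level above the 4.27 of SKO and the 4.4 of WT. The probe set of Slfn8 alone was higher by 0.14 and 0.86. Oas1a/Oas1g, oligoadenylate synthetases that activate an RNA-degrading enzyme, rose by 2.61 ± 0.28 (SE; limma, adjusted p = 0.0233) and was higher by 0.86 in SKO. Of 7 shared Trim probe sets, ubiquitin ligases of innate immunity, 5 reached the floor and 2 passed. Trim34b/Trim34a rose by 3.47 ± 0.42 (SE; limma, adjusted p = 0.0318) and Trim12c/Trim5 by 1.34 ± 0.16 (SE; limma, adjusted p = 0.0318), both from mock signals below the floor.

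Class I MHC genes present peptides or other ligands to lymphocytes, and 4 of their 6 shared probe sets reached the floor. H2-T22/H2-T9 read 6.52, 9.25 and 7.01 in WT mock, dsDNA and LPS, 7.31, 7.86 and 8.17 in SKO, and 7.38, 10.13 and 7.56 in MyD88KO. The WT mock array was the lowest of the 9. It rose by 2.78 ± 0.11 (SE; limma, adjusted p = 0.0016), exceeding SKO by 2.33 (limma, adjusted p = 0.0314). H2-Q7/H2-Q9/H2-Q8 rose by 1.77 ± 0.11 (SE; limma, adjusted p = 0.0055), and its difference from SKO, 1.81, just missed the threshold (limma, adjusted p = 0.0586). H2-Q6/H2-Q8 was higher by 0.42 in WT and by 2.52 in MyD88KO.

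Among the interferon genes themselves, 8 shared probe sets rose. Of 18 shared probe sets with a type I interferon or Gm132-numbered symbol, grouped after their values were seen, 17 reached the floor, and the 9 that did not pass include shared effects down to -0.19. Ifnz/Gm13290, limitin and a neighbour, rose most, by 1.67 ± 0.18 (SE; limma, adjusted p = 0.0247), with WT going from 6.02 to 7.35, MyD88KO from 5.21 to 7.08 and SKO from 5.81 to 6.05. The other 7 rose by 0.67 to 0.85, and they list largely the same loci, so they are not independent. Ifna5/Ifna6, classical alpha interferons, was higher by 0.42 in WT and 1.18 in MyD88KO and missed the threshold (limma, adjusted p = 0.132).

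The 2 miRNA hosts also passed. Mir155/Mir155hg, host of a miRNA of activated immune cells, read 5.44, 7.16 and 5.65 in WT mock, dsDNA and LPS, 5.61, 5.54 and 5.76 in SKO, and 5.11, 6.65 and 5.63 in MyD88KO. Only the dsDNA arrays of WT and MyD88KO lay above 6. It rose by 1.63 ± 0.09 (SE; limma, adjusted p = 0.00445), exceeding SKO by 1.7 (limma, adjusted p = 0.0415). AA467197/Mir147 rose by 2.6 ± 0.3 (SE; limma, adjusted p = 0.029), with WT going from 4.22 to 6.54 and MyD88KO from 4.18 to 7.33. Of 136 shared probe sets with a miRNA symbol, 76 reached the floor, and the median dsDNA difference over all 136 was 0 in WT and in MyD88KO.

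Differently named genes joined by position rather than by descent raise the question of which partner was read. Parp10/Plec, an ADP-ribosyltransferase and the cytoskeletal linker plectin, rose by 2.86 ± 0.26 (SE; limma, adjusted p = 0.0153), while the probe set of Plec alone read lower by 0.36 in WT and 0.46 in MyD88KO. Irf5/Tnpo3, an interferon regulatory factor and a nuclear import receptor, rose by 2.3 ± 0.2 (SE; limma, adjusted p = 0.0142), while Tnpo3 alone differed by 0.24 and 0.33. Trex1/Atrip, the exonuclease that degrades cytosolic DNA and a checkpoint partner, was higher by 0.94 in WT and 1.89 in MyD88KO (limma, adjusted p = 0.0705), while Atrip alone differed by 0 and 0.03. Cyren/Tmem140, a DNA repair regulator and a membrane protein, rose by 2.53 ± 0.28 (SE; limma, adjusted p = 0.0251) from mock signals below the floor. The partner's own probe set reads other oligonucleotides, so these values do not apportion the shared signal.

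Outside interferon families, 2 probe sets of Rnaset2a and Rnaset2b, lysosomal ribonucleases, rose by 1.05 ± 0.1 (SE; limma, adjusted p = 0.0162) and 1.02 ± 0.09 (SE; limma, adjusted p = 0.0138) at bright levels, from 10.31 to 11.45 and from 10.3 to 11.4 in WT. They were the 2 probe sets past 2-fold in WT and not in MyD88KO, where they were higher by 0.89 and 0.88. Arxes1/Arxes2, X-linked copies with identical upstream sequence over 250 bases, rose by 0.86 ± 0.11 (SE; limma, adjusted p = 0.0349). Hyal1/Naa80 (0.59), C1ql3/Pter (0.6) and Gm14636 (0.65) also passed below 2-fold. Lower were Top2a/Taf1d (-0.59), which includes a topoisomerase of dividing cells, Rgma/A730056A06Rik (-0.66) and 9930014A18Rik/Lratd2 (-0.47). Lims2/Gpr17 differed by -0.84 in WT and -1.67 in MyD88KO and missed the threshold (limma, adjusted p = 0.0673).

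In SKO cells 0 of 1132 shared probe sets passed in limma after dsDNA, nor did any under robust eBayes, with 18 higher and 13 lower at an unadjusted p under 0.05. The lowest adjusted p was 1 after rounding, from a single dsDNA array. The test of the difference, the shared effect minus the SKO effect, called 8 higher (0.707%), against 0.251% of all probe sets, and 0 lower, against 0.00425%, where 35 were lower at an unadjusted p under 0.05. The 8 are Gbp2/Gbp2b, Gm4841/BC023105, Dtx3l/Parp9, the Sp140 group, 1 Tgtp2/Tgtp1 probe set, Sp110/A530040E14Rik, H2-T22/H2-T9 and Mir155/Mir155hg. All 8 were lost without the WT dsDNA, MyD88KO dsDNA, MyD88KO mock, WT LPS, SKO mock or SKO LPS array, without the intensity trend and without the filter on dim probe sets, while 18 passed when only probe sets with a symbol were fitted.

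Several large families held no probe set that passed. Of 44 families in the list, 37 had a shared probe set, 11 had one at least 2-fold higher after dsDNA in WT, 13 in MyD88KO and 0 in SKO. The olfactory receptor family enters the first 2 counts through Olfr56/Ifi47 alone. The chemokine probe sets, copies of Ccl19, Ccl21 and Ccl27a that guide lymphocytes, reached the floor on 32 of 33, with 23 distinct sets of values. They differed by -0.26 to 0.19 in WT and by -0.25 to 0.25 in MyD88KO. The 58 ribosomal protein probe sets above the floor differed by -0.88 to 0.44 in WT, and the 35 of zinc finger transcription factors by -0.9 to 0.37. The 48 of histones differed by -0.54 to 0.61 in WT, with 3 at least 2-fold higher in MyD88KO. The 9 of defensins, antimicrobial peptides, differed by -0.53 to 0.15. In none of these 5 families did a probe set pass for dsDNA in limma.

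After LPS, Gbp2/Gbp2b, Gm4841/BC023105, Ifi211/Ifi204 and Dtx3l/Parp9 were at least 2-fold higher than mock in all 3 genotypes. In WT 10 of 1073 were at least 2-fold higher (0.932%), against 1.19% of all probe sets, and 1 was lower, against 0.677%, namely a pair of immunoglobulin kappa variable genes (-1.26) that was also the 1 lower after dsDNA in WT (-1.25). In SKO 10 of 1050 were higher (0.952%), against 0.812%, and 1 was lower, against 0.543%. In MyD88KO 12 of 1059 were higher (1.13%), against 1.86%, and 1 was lower, against 0.62%. WT and SKO had 6 in common of 1036 (0.579%), against 0.303% of all: Gbp2/Gbp2b, Gm4841/BC023105, Ifi211/Ifi204, Slfn9/Slfn8, Dtx3l/Parp9 and Trim34b/Trim34a. All but Slfn9/Slfn8 and Trim34b/Trim34a were also counted in MyD88KO. Trim34b/Trim34a differed by 1.65 there, but its LPS array (3.73) stayed below the floor.

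The LPS and dsDNA differences of 1 genotype share its mock array, so they are set side by side only. For Gbp2/Gbp2b the LPS differences were 2.77 in WT, 2.15 in SKO and 2.32 in MyD88KO, beside 6.14, 0.43 and 6.63 after dsDNA. For Gm4841/BC023105 they were 2.52, 3.39 and 1.23, beside 6.26, 1.4 and 5.73. For Ifi211/Ifi204 they were 2.43, 2.79 and 1.53, beside 4.68, 0.78 and 3.51. On all 24 probe sets listed for dsDNA, the SKO LPS array read above the SKO dsDNA array. The dsDNA array read above the LPS array on all 24 in WT and in MyD88KO. These 24 were picked for high dsDNA arrays in WT and MyD88KO, which favours that order there. No such counts were made over all probe sets. Parp10/Plec and the Ifi203 probe set were higher after LPS by 1.61 and 1.82 in SKO, against 0.78 and 0.04 in WT and 0.89 and 1.21 in MyD88KO.

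The anti-apoptotic Bcl2a1 genes, copies of an NF-kB target, were 2 of the few shared probe sets that were higher with LPS and not with dsDNA. Bcl2a1b/Bcl2a1a read 2.87, 3.45 and 4.65 in WT mock, dsDNA and LPS, 3.31, 3.58 and 4.12 in SKO, and 2.81, 3.18 and 3.92 in MyD88KO. Only the WT LPS array was above the floor, so the MyD88KO difference of 1.11 lay wholly below it. Bcl2a1d/Bcl2a1a/Bcl2a1b was higher by 1.02 in WT, 0.47 in SKO and 0.46 in MyD88KO. Rab11fip1/4933416M07Rik, with a Rab11 effector of vesicle recycling, was higher by 1.17 in WT alone. Snord4a/Tlcd1 was higher by 1.72 in MyD88KO, where its mock array, at 3.46, was the lowest of the 9. Lilr4b/Lilrb4a, inhibitory receptors of myeloid cells, was higher with LPS by 1.14 in MyD88KO, 0.3 in WT and 0.32 in SKO. It was also higher with dsDNA in MyD88KO, by 1.03. The brighter probe set of Lilrb4a alone was higher with LPS by 1.34 in WT, 0.53 in SKO and 0.85 in MyD88KO. The 1 lower in MyD88KO was a second H2bc15/H2bc13/H2bc11/H2bc7 probe set (-1.4), whose mock array there, at 6.27, was the highest of the 9.

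In limma 0 of 1132 shared probe sets passed for the LPS effect shared by WT and SKO, with 37 higher and 15 lower at an unadjusted p under 0.05 and a lowest adjusted p of 0.0782. Over all 23516 probe sets 8 passed (0.034%). With robust eBayes 0 passed, and 4 passed when only probe sets with a symbol were fitted. In MyD88KO 0 passed, also with robust eBayes, with 38 higher and 24 lower at an unadjusted p under 0.05 and a lowest adjusted p of 0.339. A difference in the LPS response between MyD88KO and the other genotypes was not tested.

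Genotypes also differed in level over the 3 treatments. In an additive limma model of genotype and treatment, 8 of 1132 shared probe sets were at least 2-fold higher in MyD88KO than in WT (0.707%), against 1.2% of all, and 26 were lower (2.3%), against 1.04%. Of the 26 lower, 16 are Snord116 copies with identical values, so they stand for 11 distinct sets of values. Without the MyD88KO mock array 19 passed in place of 34. Between SKO and WT 0 passed at 2-fold, also with robust eBayes, against 0.208% of all higher and 0.0638% lower. At an unadjusted p under 0.05, 55 were higher and 62 lower. Unequal treatment responses enter the SE of this model, which was 0.82 for Ifi211/Ifi204 between SKO and WT. The fibroblast marker median was 10.64 to 10.9 in MyD88KO against 9.28 to 9.44 in WT and its part in these differences was not tested.

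Histone genes lie in clusters of near-identical copies, and their shared probe sets did not differ in 1 direction. The H3 probe set of 8 copies, H3c13 to H3c14, read 8.01, 8.38 and 7.86 in WT mock, dsDNA and LPS, 7.97, 8.06 and 7.96 in SKO, and 5.16, 6.29 and 5.4 in MyD88KO. The MyD88KO arrays did not overlap the other 6, and the difference from WT was -2.47 ± 0.19 (SE; limma, adjusted p = 0.000468). The H4 probe set of 13 copies differed by -2.06 ± 0.23 (SE; limma, adjusted p = 0.00207), and H2bc15/H2bc13/H2bc11/H2bc7 by -2.13 ± 0.2 (SE; limma, adjusted p = 0.00103). The latter read 2.79 to 3.69 on the MyD88KO arrays, below the floor. A brighter probe set of the same H2b genes, at 10.5 to 11.77, was higher in MyD88KO by 0.72 (limma, adjusted p = 0.00282). Another was higher by 0.71 (limma, adjusted p = 0.189). H2bc8/H2bc6/H2bc4 differed by -1.52 ± 0.12 (SE; limma, adjusted p = 0.000467). In the opposite direction, 2 H2a probe sets were higher in MyD88KO by 1.19 ± 0.16 (SE; limma, adjusted p = 0.00453) and 1.09 ± 0.1 (SE; limma, adjusted p = 0.00114). Under 2-fold, other probe sets of the same H2a genes ranged from -0.99 (limma, adjusted p = 0.00427) to 0.87 (limma, adjusted p = 0.000951). Probe sets that list the same histone genes thus differed in direction. Of 48 histone probe sets above the floor, 6 passed as lower and 2 as higher, with a median difference of 0.03, beside -0.005 over all probe sets.

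Other genotype differences lay in genes that overlap or neighbour each other. Gm26504/Snord116l1/Snord116l2, small nucleolar RNAs of an imprinted region, read 5.85, 5.92 and 6.16 in WT, 5.42, 4.93 and 5.24 in SKO, and 4.62, 4.74 and 5.17 in MyD88KO for mock, dsDNA and LPS. The MyD88KO and SKO values overlapped, and MyD88KO differed from WT by -1.13 ± 0.15 (SE; limma, adjusted p = 0.00397). Peg3/Peg3os, another imprinted gene with its antisense RNA, differed by -1.1 (limma, adjusted p = 0.0109). Hyal1/Naa80, a hyaluronidase and an actin acetyltransferase, differed by -1.67, Krr1/Glipr1 by -1.48 and Gm15483/Rps13-ps4/Rps13 by -2.11. The probe set of Rps13 alone read 8.93 in WT mock and 8.87 in MyD88KO mock. Higher in MyD88KO were Srpx/Rpgr (1.66), Igsf10/Med12l (1.39), Ncapg/Lcorl (1.36), Oip5/Nusap1 (1.29), Pkmyt1/Paqr4 (1.21) and Fanca/Zfp276 (1.02), among which Ncapg, Oip5, Nusap1 and Pkmyt1 act in cell division. In SKO, H19/Mir675, an imprinted RNA and its miRNA, read 9.6 to 9.63 against 10.54 to 10.61 in WT, and its difference of -0.96 passed the p threshold but lay under 2-fold.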

How the data were processed

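The authors deposited log2 signals of 9 mouse arrays, 1 per genotype and treatment, made from 300 ng of total RNA with the GeneChip WT PLUS kit, per the labels. Affymetrix Expression Console 1.3.1.187 is named, per the submitters' processing notes. How background was corrected and signals normalised and summarised is not given in these sources. No detection calls were used. Symbols come from the platform annotation and can be old.

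Differences are treated minus mock. limma 3.58.1 (R 4.3.3; lmFit, eBayes with an intensity trend, Benjamini-Hochberg) was fitted to 23516 probe sets that reached the overall median signal on at least 1 array. The response model had 2 residual degrees of freedom, the additive genotype model 4. The fits were tested on simulated data. With 1 array a group, the residual of the response model is how far genotypes that share an effect disagree. In the additive model it is how far treatment effects differ between genotypes. The labels do not name separate cultures, so p-values rest on this disagreement and not on a spread between replicates. The number of arrays limits the precision.

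By the naming rule, the text names the 20 largest mean rises past 2-fold in WT and MyD88KO, up to 12 for LPS in WT and SKO, up to 6 rises and 3 falls for dsDNA in SKO and LPS in MyD88KO, up to 6 a direction for genotype, and the brightest member of each responding family. Other names, and single-symbol probe sets beyond each family's comparators, were chosen after their values were seen. Members and lists were chosen with earlier results of these data known. Tabulations used Python 3.11.15 with pandas 2.3.3.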

Additional observations from a re-analysis of the deposited data

Results flagged for a closer look

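For 8 shared probe sets the response to dsDNA differed between the genotypes with STING (WT and MyD88KO) and SKO by a test of the difference itself (limma, adjusted p from 0.0271 to 0.0415). The shared effect exceeded that of SKO on the log2 scale by 5.66 for Gbp2/Gbp2b, by 5 for Gm4841/BC023105 and by 3.37 for Dtx3l/Parp9. It exceeded it by 3.35 for C130026I21Rik/Sp140/LOC100041057/LOC100041708/A530032D15Rik, by 3.15 for 1 Tgtp2/Tgtp1 probe set and by 2.68 for Sp110/A530040E14Rik. For H2-T22/H2-T9 the excess was 2.33 and for Mir155/Mir155hg 1.70. The Gm4841/BC023105 and Sp140 probe sets had mock arrays below the floor and were counted through their dsDNA arrays, so their sizes are not firm. All 8 calls were lost without the intensity trend, without the filter on dim probe sets and without certain single arrays. The SKO effect comes from 1 dsDNA array. Groups of 1 array allow no check for a single outlying sample.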

How the results depend on the processing

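No paired analysis was possible because each group holds 1 array, so that no replicate number is shared by 2 pairs of arrays. Counts of shared probe sets at least 2-fold higher after dsDNA in WT, SKO and MyD88KO and after LPS in WT, SKO and MyD88KO were 26, 1, 40, 10, 10 and 12. At 1.5-fold they were 50, 13, 73, 22, 23 and 31, and with only copies of 1 named family 12, 0, 17, 6, 4 and 4. A floor at 6 gave 0 for dsDNA in SKO, 5 for LPS in WT and 5 for LPS in MyD88KO. No floor and quantile normalization moved none of the 6 counts by over 1.5 times.

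The shared dsDNA effect had 37 limma calls: 17 with no filter on dim probe sets, 14 with no intensity trend, 74 with only symbol-bearing probe sets, and 0 to 38 with 1 array left out. The 14 and the 17 were all among the 37. The excess over SKO had 8 calls: 0 with no filter, 0 with no trend, 18 with only symbol-bearing probe sets, and 0 to 8 with 1 array left out. LPS shared by WT and SKO had 0 calls, 4 with only symbol-bearing probe sets and 0 to 1 with 1 array left out. MyD88KO against WT had 34 calls, 19 to 46 with 1 array left out, and 19 when each distinct set of values was counted once, an alternative chosen after seeing the data. dsDNA in SKO, LPS in MyD88KO and SKO against WT had 0 calls under every alternative run. Among probe sets named by the rule, 21 for dsDNA and 12 for MyD88KO against WT were followed through the alternative fits. None of these changed direction, and the other named probe sets were not followed. The cause of these changes was not tested, except that leaving out an array leaves 1 residual degree of freedom in several fits.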
